A study of Mus musculus with 11 samples.

Results

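The genes described here are 3 that encode membrane proteins, Tmeff2, Tmem151b and Pmp22, together with the close relatives (paralogs) of each, which are Tmeff1 for Tmeff2, Tmem151a for Tmem151b, and Emp1, Emp2 and Emp3 for Pmp22. They were found by symbol, and all 8 were among the 24421 genes counted. Tmeff2, Tmem151b and Pmp22 were chosen because their read counts were lower in Tbr1 knockout cells than in control cells of this series. Their values between genotypes are therefore a description, given with no test. The 5 paralogs entered by kinship and not by their values, and the question asked of them was whether their transcripts were more abundant where those of the related gene were fewer.

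RNA was sequenced from J-RGCs, ganglion cells of the retina that respond to the direction of motion and are known for expressing Jam2, in control mice (labelled WT) and in mice labelled Tbr1 KO, all at postnatal day 4 to 5 and of mixed C57BL/6 and CD1 background. Tbr1 encodes a T-box transcription factor, and neither the removed part of the gene nor the cells that lacked it are stated in the labels. In both genotypes the cells carried green fluorescent protein from a J-RGC transgenic line and were sorted into pools of 100 cells, 1 pool per library. There were 5 control libraries from 4 animals, named control a to d, of which b gave libraries 2 and 3 and the others 1 library each (1, 4 and 5). The 6 mutant libraries also came from 4 animals, mutant a to d, of which a gave libraries 1 and 2, b gave 3 and 4, and c and d gave 5 and 6.

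Libraries held 8609845 to 34718693 reads in genes. Levels are given as CPM, read counts brought to one library size, and the animal is the replicate, 4 per genotype. The 13 ganglion cell markers examined were all counted, with summed levels of 12900 to 15600 CPM in control animals and 14000 to 15400 in mutants. Of these 13 markers, all tested, 1 passed the edgeR test at an adjusted p under 0.05, where 0.287% of all tested genes did. That marker was Jam2 itself, at 528 ± 85.6 CPM in control animals and 107 ± 21.5 in mutant animals (SD, n = 4 each). Its edgeR adjusted p was 6.41e-05. Its genotypes did not overlap, which held for 5.06% of all tested genes. Pou4f2, a transcription factor of ganglion cells, was at 282 ± 12.8 and 163 ± 37.7 CPM, also without overlap (edgeR adjusted p = 0.0681). Thy1 did not overlap either, at 382 to 458 CPM in controls and 260 to 359 in mutants, and Pou4f1 averaged 1130 and 858 CPM. A higher mutant mean was found for 6 of the 13 markers. Among these was Nefl, the largest part of the sum, at 5030 ± 801 and 6120 ± 512 CPM (SD, n = 4 each). Tbr1 was still counted in the mutants, at 120 ± 23.4 CPM (SD, n = 4) against 170 ± 16.5 in controls (SD, n = 4). Reads from exons left in a mutant allele are counted too, so the Tbr1 level is no check of the labels. Summed marker levels of other retinal cells were 40.1 to 292 CPM in controls and 29.3 to 1130 in mutants for 15 photoreceptor genes, 335 to 427 and 467 to 727 for 14 Müller glia and astrocyte genes, and 530 to 777 and 899 to 1110 for 12 amacrine genes. The 10 bipolar genes summed to 865 to 1210 CPM in controls and 749 to 991 in mutants. Most of that sum was Isl1 (means 919 and 699 CPM), which is also among the ganglion cell markers. A higher mutant mean was found for 7 of the 10. Of the 14 glial genes, 11 were tested and 2 passed the edgeR test, where 0.287% of all tested genes did. Dkk3 averaged 158 CPM in control animals and 265 in mutant animals (edgeR adjusted p = 0.0495), and Clu 60.1 and 103 CPM (edgeR adjusted p = 0.0465). A higher mutant mean was found for 11 of the 14. Among these were Rlbp1, at 8.65 ± 7.36 and 18.8 ± 14.8 CPM, and Sox9, at 8.47 ± 7.01 and 14.4 ± 6.54 CPM (controls then mutants, SD, n = 4 each). Vim averaged 22.5 and 23.1 CPM, and Gfap, which was lower in the mutants, 1.71 and 0.368 CPM. Of the amacrine genes, Slc6a9 averaged 10.1 CPM in control animals and 23.1 CPM in mutant animals, while Gad1, Chat and Th were at or below 2.29 CPM in every animal. The part of these other cells in the results below was not tested, apart from the photoreceptor covariate given with the processing alternatives. Less RNA of a gene per cell and fewer cells that express it cannot be told apart in pools.

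Tmeff2 and Tmeff1 are single-pass transmembrane proteins that carry follistatin-like domains and an EGF-like domain outside the cell. They are known from brain tissue, where they have been linked to activin, nodal and PDGF signalling. Pmp22 is a tetraspan protein of the claudin superfamily, best known from the compact myelin of peripheral nerves, where both extra and missing gene copies cause neuropathy. Emp1, Emp2 and Emp3 are its epithelial relatives. Tmem151a and Tmem151b are transmembrane proteins of the nervous system whose molecular role is less well described.

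The 3 chosen genes lie on different chromosomes. In the GENCODE M21 annotation of GRCm38, Tmeff2 spans chromosome 1, 50900647 to 51187270, on the plus strand, Tmem151b spans chromosome 17, 45541952 to 45549677, on the minus strand, and Pmp22 spans chromosome 11, 63128982 to 63159547, on the plus strand. In that annotation Tmeff2 overlaps the antisense gene Gm28319 and Tmem151a the antisense gene AC124502.4, and without strand such reads cannot be told apart. Tmeff2 also overlaps Gm25736, Gm28320 and Gm28322 on its own strand, and how any shared reads were assigned is not given. The sequences before the start sites of Tmeff2, Tmem151b and Pmp22 are shown because these are the genes whose levels were lower in the cells labelled Tbr1 KO, and Tbr1 encodes a transcription factor. Each is 190 bases of GRCm38.p6 from RefSeq, read 5′ to 3′ on the gene's own strand, from 200 to 11 bases before an annotated start. Pmp22 has 4 annotated starts, of which the first and second are shown, and counts per gene do not tell which start was used. Capitals mark GGTGTG, the core of the T-box half-site, searched on both strands (reverse complement CACACC) after the sequences had been seen.
Tmeff2, chr1:50927323-50927512: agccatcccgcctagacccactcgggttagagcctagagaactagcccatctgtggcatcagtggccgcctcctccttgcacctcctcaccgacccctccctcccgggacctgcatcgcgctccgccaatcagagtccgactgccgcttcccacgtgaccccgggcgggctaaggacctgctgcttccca
Tmem151b, chr17:45549688-45549877: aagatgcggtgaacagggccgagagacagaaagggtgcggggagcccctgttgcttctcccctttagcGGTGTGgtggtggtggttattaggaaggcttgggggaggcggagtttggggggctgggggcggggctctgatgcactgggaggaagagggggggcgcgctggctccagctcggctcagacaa
Pmp22, first start, chr11:63128782-63128971: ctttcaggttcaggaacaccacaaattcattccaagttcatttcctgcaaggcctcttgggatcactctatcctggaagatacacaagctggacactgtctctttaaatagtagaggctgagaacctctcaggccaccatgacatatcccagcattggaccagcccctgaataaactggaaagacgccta
Pmp22, second start, chr11:63131257-63131446: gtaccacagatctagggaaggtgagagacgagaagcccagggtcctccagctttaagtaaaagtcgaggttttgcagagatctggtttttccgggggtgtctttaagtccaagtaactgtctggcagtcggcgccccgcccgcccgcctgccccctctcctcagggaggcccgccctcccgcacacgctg

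Over the full 250 bases before each start, GGTGTG occurred once for Tmem151b, 132 bases before the start, and in neither strand for Tmeff2 or any of the 4 starts of Pmp22. The Tmeff2 window ends at base 50927522, inside the gene as GENCODE M21 spans it. The sequence before the GENCODE start of Tmeff2 at 50900647 was not searched. It also occurred once each for the paralogs Tmeff1 and Tmem151a and for the second of 2 starts of Emp3. It was present in 16.3% of 32851 such windows of all genes. The longer forms GGTGTGA and AGGTGTGA, which contain the shorter one, were present in 3.33% and 1.12% of those windows and in none of the windows of the 8 genes. The windows differed in base composition, with 64.8% G and C for both Tmeff2 and Tmem151b and 48.8%, 61.2%, 64.8% and 73.6% for the 4 starts of Pmp22 in order.

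Tmeff2 was at 192, 289, 240 and 205 CPM in control animals a to d and at 82.2, 75.0, 47.6 and 60.5 CPM in mutant animals a to d. The mutant animals all lay below the controls, with control b highest and mutant c lowest. The means were 232 ± 43.4 and 66.4 ± 15.4 CPM (SD, n = 4 per genotype), so that the mutant level was 28.7% of the control level. On the log2 scale the difference was -1.80 ± 0.19 (SE).

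Tmem151b was the most abundant of the 8 genes, at 601, 434, 595 and 486 CPM in control animals a to d and at 243, 191, 143 and 164 CPM in mutant animals a to d. Again no animal of one genotype reached the range of the other. The mutant mean of 185 ± 42.9 CPM was 35% of the control mean of 529 ± 82.6 CPM (SD, n = 4 per genotype). On the log2 scale the difference was -1.51 ± 0.17 (SE). Tmem151b overlaps Tcte1 on the opposite strand, and the library type does not mark strand. Tcte1 had a mean of 0.369 CPM in controls and 1.48 CPM in mutants. Counts per gene do not tell how reads in the shared stretch were assigned.

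Pmp22 had the lowest level of the 3 and the largest ratio between genotypes. It was at 63.7, 38.2, 53.8 and 45.6 CPM in control animals a to d and at 10, 7.34, 7.62 and 11.9 CPM in mutant animals a to d. The highest mutant animal lay well below the lowest control animal. The mutant mean of 9.22 ± 2.16 CPM was 18.3% of the control mean of 50.3 ± 10.9 CPM (SD, n = 4 per genotype). On the log2 scale the difference was -2.45 ± 0.26 (SE).

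As the background to these values, 28 of 13957 tested genes (0.201%) were lower in the mutants and 12 (0.086%) higher at an adjusted p under 0.05 in the edgeR quasi-likelihood test, and the animals of the genotypes did not overlap in 5.06% of tested genes. Nothing is read from the 3 chosen genes against these shares, since this contrast chose them.

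**Figure D1:**
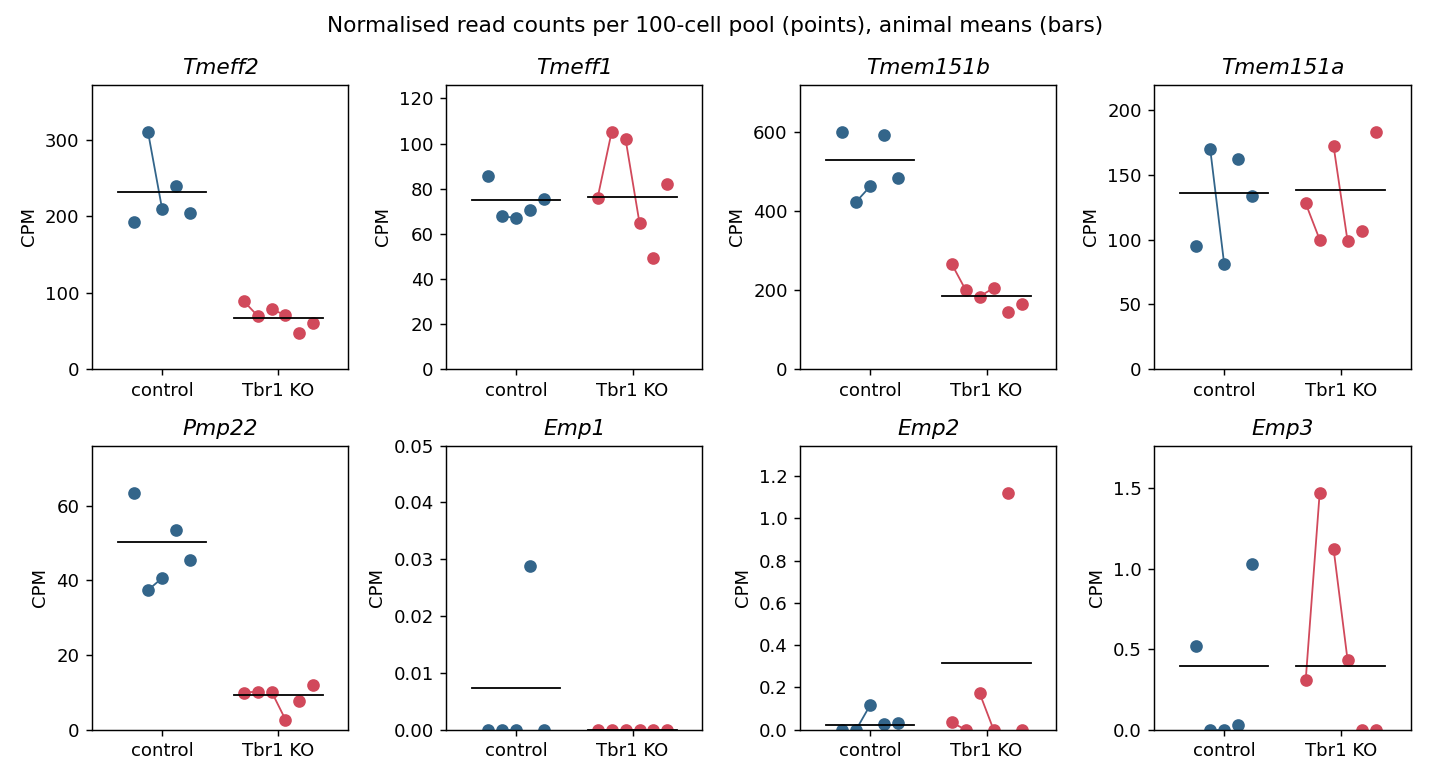
Normalised read counts (CPM, linear axes from 0, a scale for each gene) of the 8 genes in the 5 control and 6 Tbr1 KO libraries. Points are libraries, lines join pools of the same animal and bars are means over 4 animals. Tmeff2, Tmem151b and Pmp22 separate the genotypes, Tmeff1 and Tmem151a overlap, and Emp1, Emp2 and Emp3 stay at or below 1.47 CPM.

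Neither of the well-expressed paralogs passed the test, and the mutant mean of each was 102% of its control mean. Tmeff1 (chromosome 4, 48585174 to 48663131) was at 86.2, 67.8, 70.6 and 75.7 CPM in control animals a to d and at 86.1, 87.9, 49.1 and 82.2 CPM in mutant animals a to d. The ranges overlapped, with mutant c below every control and mutant b just above the highest. Its means were 75.1 ± 8.11 and 76.3 ± 18.3 CPM (SD, n = 4 per genotype). The log2 fold change was 0.02 ± 0.19 (SE), with a 95% interval of -0.39 to 0.44, and the adjusted p over all genes was 0.998 by edgeR (quasi-likelihood, Benjamini-Hochberg). Permuting the animals exactly, two-sided, on log2 CPM gave p = 0.971.

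Tmem151a (chromosome 19, 5070859 to 5085531) was at 95.5, 151, 163 and 135 CPM in control animals a to d and at 118, 144, 107 and 183 CPM in mutant animals a to d. The lowest animal was a control and the highest a mutant, and the other animals were interleaved. Its means were 136 ± 29.3 and 138 ± 33.8 CPM (SD, n = 4 per genotype), and the log2 fold change was 0.02 ± 0.20 (SE), with a 95% interval of -0.41 to 0.45. The edgeR adjusted p was 0.998, and the exact two-sided permutation over animals gave p = 1.

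On the ratio scale the unadjusted 95% intervals ran from 0.762 to 1.36 for Tmeff1 and from 0.755 to 1.37 for Tmem151a. Per kilobase of annotated exon, Tmeff2 was lower by 24.6 CPM per kb in the mutants, and Tmeff1 would have had to stand at 1.84 times its control level of 29.5 CPM per kb to replace that amount. Tmem151b was lower by 71.0 CPM per kb, and Tmem151a would have had to stand at 3.51 times its control level of 28.3 CPM per kb. These factors are built from genes chosen for their lower level in this contrast, carry no error and depend on the annotated exon lengths. They are a description and were not tested against the intervals.

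**Figure D2:**
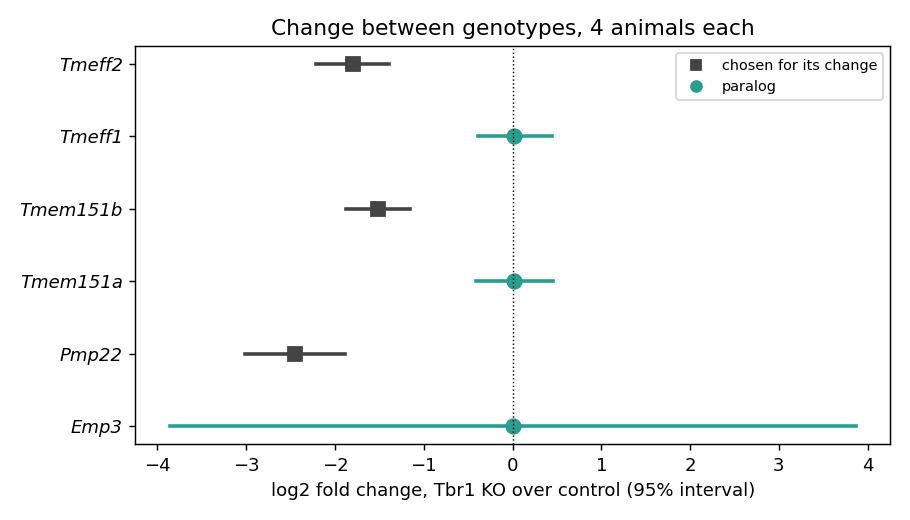
Log2 fold change of Tbr1 KO over control (x axis) for the 6 of the 8 genes that passed the filter on low counts, with 95% intervals from the edgeR fit over 4 animals per genotype. Squares are the genes chosen for their change and circles are paralogs; Tmeff1 and Tmem151a sit at 0.02, and the interval of Emp3 runs from -3.86 to 3.87.

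The Pmp22 paralogs were close to absent from these cells. Emp1 (chromosome 6, 135362545 to 135383173) had 1 count, in control library 4, and 0 counts in the other 10 libraries, where 3 counts would correspond to 0.0865 to 0.349 CPM. Emp2 (chromosome 16, 10281749 to 10313968) had 3 counts over the control animals and 45 over the mutants. Of those 45 counts, 38 came from library 5 of mutant c, at 1.12 CPM with an exact 95% Poisson interval of 0.795 to 1.54, and 6 from library 3. Both genes fell below the filter on low counts and were not tested. In library 5 the 15 photoreceptor markers summed to 1120 CPM, against 9.54 to 292 CPM in the other libraries, and the part of other cells in the Emp2 counts was not tested.

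Emp3 (chromosome 7, 45918023 to 45921404) passed the filter with 47 counts over the controls and 80 over the mutants. It was at 0.524, 0, 0.0290 and 1.04 CPM in control animals a to d and at 0.713, 0.861, 0 and 0 CPM in mutant animals a to d. Reads were thus present in some animals of each genotype and at 0 in others. Its log2 fold change was 0.00 ± 1.78 (SE) with an interval of -3.86 to 3.87, and the adjusted p was 1 in the edgeR quasi-likelihood test. Microglia and blood markers summed to 130 CPM in control library 1, 83.5 in mutant library 2 and 108 in mutant library 3, where Emp3 was at 0.522, 1.47 and 1.12 CPM. They summed to 24.3 CPM in control library 5, where Emp3 was at 1.03 CPM, and to 59.0 in control library 2, where it had 0 counts. In mutant libraries 1 and 4 they summed to 18.9 and 15 CPM, and Emp3 was at 0.308 and 0.43 CPM. In control libraries 3 and 4 and mutant libraries 5 and 6 they summed to 12.8, 48, 33.7 and 12.1 CPM. There Emp3 was at or below 0.0289 CPM. The part of those cells was not tested.

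None of the 3 paralogs that could be tested passed the threshold, where 0.287% of all tested genes did in either direction. None of the 3 had an unadjusted edgeR p under 0.05, which 7.09% of all tested genes had, and DESeq2 called none of them either.

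Summed over a family and given per kilobase of exon, the level of each of the 3 families was lower in the mutants. The Tmeff pair summed to 64.0 ± 4.06 CPM per kb in control animals against 39.8 ± 9.24 in mutant animals (SD, n = 4 each), and Tmeff2 made up 53.7% ± 6.92 of it in controls and 25% ± 2.34 in mutants. The Tmem151 pair summed to 138 ± 16 and 67 ± 10.4 CPM per kb, with Tmem151b at 79.2% ± 5.08 and 57% ± 8.13 of it. Pmp22 with the 3 Emp genes summed to 21.8 ± 4.73 and 4.32 ± 0.811 CPM per kb. In these sums the mutant mean of the paralogs was 0.489, 0.452 and 0.029 CPM per kb above the control mean, in the order given. The SD over animals was 3.18 in controls and 7.17 in mutants for Tmeff1, and 6.09 and 7.02 for Tmem151a. Of the Emp genes, Emp2 in mutant c alone was at 0.13 CPM per kb. The sums contain the chosen genes, so their lower level is a description, with no test.

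**Figure D3:**
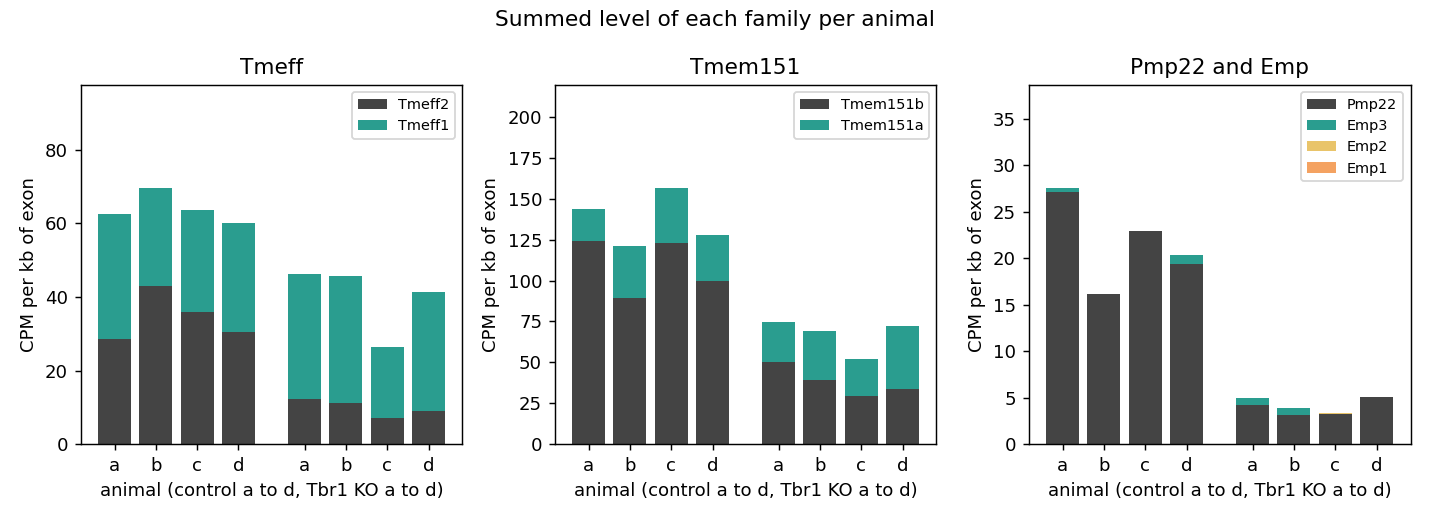
Levels per kilobase of exon (CPM per kb, axes from 0) stacked by gene for the Tmeff, Tmem151 and Pmp22 with Emp families in each of the 4 control and 4 Tbr1 KO animals. The dark part (Tmeff2, Tmem151b, Pmp22) is shorter in the mutant animals, and the green part of the first and second panels (Tmeff1, Tmem151a) is of like height in both genotypes.

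The order of levels per kilobase of exon also differed between the genotypes. In control animals Tmem151b stood alone at 89.6 to 124 CPM per kb. Tmeff2 (28.7 to 43.1), Tmeff1 (26.6 to 33.8) and Tmem151a (19.9 to 33.8) followed with overlapping ranges, as did Pmp22 (16.2 to 27.1), whose range overlapped those of Tmem151a and Tmeff1 but not that of Tmeff2. Emp3 came next at 0 to 0.967, and Emp2 and Emp1 had a few counts. In mutant animals Tmem151b (29.6 to 50.1 CPM per kb), Tmeff1 (19.3 to 34.5) and Tmem151a (22.3 to 38.1) overlapped one another. Tmeff2 (7.10 to 12.3) lay below them, and Pmp22 (3.12 to 5.06) below Tmeff2. The lengths are those of all annotated exons of a gene, so a gene with unused exons is placed too low.

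Pools from the same animal show how far 100 sorted cells vary with no difference in genotype. Pmp22 was at 37.4 and 40.6 CPM in the 2 pools of control b and at 9.92 and 10.2 CPM in those of mutant a, but at 10.2 and 2.68 CPM in those of mutant b, 3.8 times as much in the first as in the second (95% counting interval 2.86 to 5.13). Among genes of at least 16 CPM, 90% differed by less than 1.71-fold between those 2 pools, although Pmp22 itself lies below that level there. Tmem151a differed 2.10-fold between the pools of control b (170 and 81.1 CPM) and 1.74-fold between those of mutant b (172 and 98.6 CPM), where the median gene differed 1.30-fold and 1.19-fold. Tmeff1 was at 75.9 and 105 CPM in the pools of mutant a and at 102 and 64.7 CPM in those of mutant b. Tmeff2 differed by 1.48-fold or less and Tmem151b by 1.33-fold or less within an animal. The intervals of single libraries and of pool ratios, and the levels given for 3 counts, cover counting error only, since reads carried no molecular identifiers. The intervals of log2 fold changes come instead from the edgeR fit over 4 animals per genotype.

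Within genotypes the 3 chosen genes did not follow one another closely. After the genotype means were removed, Pearson's r of log2 CPM over the 8 animals was 0.41 for Tmeff2 with Tmem151b, 0.51 for Tmem151b with Pmp22 and -0.22 for Tmeff2 with Pmp22. By the same measure, the genes most like Tmeff2 among 7771 of at least 16 CPM were Zfp563 (0.97), Nifk (0.96) and Nip7 (0.96). Those most like Tmem151b were Etnk1 (0.97), Gde1 (0.96) and March4 (0.95), and those most like Pmp22 were Tbcd (0.97), Nubp1 (0.96) and Tmem117 (0.95). These coefficients were picked as the highest of all genes ranked, over 8 points that share library depth, and they are a description only.

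The nearest tested protein-coding genes on either side, named by position after the values were seen, gave no call. Around Tmem151b, Aars2 was at 24.1 ± 11.5 and 30.6 ± 6.37 CPM and Nfkbie at 9.46 ± 7.17 and 3.57 ± 3.25 CPM (controls then mutants, SD, n = 4 each). Around Pmp22, Tvp23b was at 87.5 ± 17.3 and 85.7 ± 11.7 CPM and Cox10 at 79.9 ± 17.4 and 66.0 ± 16.5 CPM. Around Tmeff2, Slc39a10 lay 4010 kb away, at 43.9 ± 4.17 and 53.9 ± 6.18 CPM, and Nabp1 279 kb away, at 1.25 ± 1.52 and 0.995 ± 0.328 CPM. By edgeR, the adjusted p of these neighbours ran from 0.808 to 0.997 over the 6 genes.

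Of the wider families and signalling partners, none passed the threshold over all genes by edgeR, where 0.287% of all tested genes did. DESeq2 called 1 of the 79 list entries, where it called 1.12% of the 13896 genes it gave an adjusted p. That gene was Sparcl1, a secreted protein with a follistatin-like domain, at 132 ± 38.7 CPM in control animals against 76.8 ± 17.7 in mutant animals (SD, n = 4 each), with an adjusted p of 0.312 by edgeR. In the list of activin, BMP, TGF-beta, EGF and PDGF signalling, the pathways to which the Tmeff proteins have been linked, 0 of 35 tested genes passed, 1 had an unadjusted edgeR p under 0.05 (7.09% of all tested genes had), and the median log2 fold change was 0.03 against 0 over all tested genes. Its most abundant members by the mean over both genotypes were Mstn, the activin-type ligand myostatin, at 232 ± 27.2 CPM in control animals against 195 ± 27.6 in mutant animals, and Hbegf, an EGF receptor ligand, at 53.7 ± 9.49 and 54.8 ± 5.42 CPM (SD, n = 4 per genotype). Among other proteins with follistatin-like domains, 0 of 14 passed, 3 had an unadjusted p under 0.05 (Fst and Fstl1 with higher mutant means, Sparcl1 with a lower one), and the median was 0.04. Agrn, the organiser of the neuromuscular synapse, was at 171 ± 31.1 and 167 ± 21.6 CPM, and Fstl4 at 154 ± 34.4 and 166 ± 46.6 CPM.

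In the claudin and PMP22 superfamily 0 of 18 tested genes passed, 2 had an unadjusted edgeR p under 0.05, and the median log2 fold change was -0.06. Over all tested genes, 0.287% passed by edgeR and 7.09% had an unadjusted edgeR p under 0.05. These shares apply to the counts in each list below as well. Cacng5, an auxiliary subunit of AMPA receptors, was at 431 ± 98.6 and 442 ± 36.9 CPM, and Lhfp at 424 ± 50.2 and 443 ± 59.2 CPM (SD, n = 4 per genotype). Of the partners and regulators of PMP22 and EMP proteins 0 of 12 passed, 1 had an unadjusted p under 0.05, and the median was 0.04. Canx, the chaperone calnexin, was at 410 ± 26.4 and 397 ± 9.01 CPM, and the integrin subunit Itgb1 at 99.2 ± 28.3 and 106 ± 26.9 CPM. Beside Pmp22, the 12 myelin-related markers summed to 122 to 188 CPM in controls and 132 to 171 in mutants. Most of that sum was Cnp, which averaged 131 and 123 CPM. A higher mutant mean was found for 5 of the 12, such as Mbp (8.65 and 17.6 CPM). Mag was lower (13.4 and 7.85 CPM), as was Mog, at 4.92 to 6.53 CPM in controls and 1.04 to 2.66 in mutants. None of the 7 tested passed the edgeR test. Sox10, a transcription factor of myelinating glia, had 0 counts in every library.

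**Figure D4:**
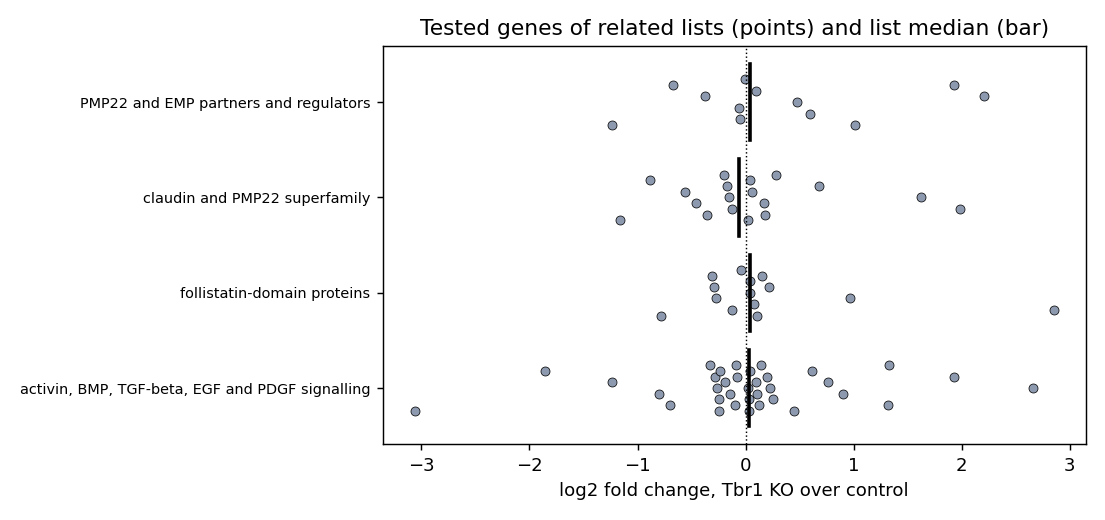
Log2 fold change of Tbr1 KO over control (x axis) for each tested gene of the 4 related lists, with 35, 14, 18 and 12 genes from the bottom list to the top. Bars mark the list medians, which lie between -0.06 and 0.04; no point passed the threshold over all genes.

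Of the 79 list entries tested, 3 had animals of one genotype all above those of the other, a choice made with their values in view. Fst, which encodes the activin-binding protein follistatin, was at 0.161 to 2.05 CPM in controls and 3.52 to 8.93 in mutants, a log2 fold change of 2.85 ± 0.96 (SE) with an adjusted p of 0.478 in the edgeR quasi-likelihood test. Cacng2 was at 23.0 to 37.7 CPM in controls and 42.9 to 67.9 in mutants (edgeR adjusted p = 0.469). Lhfpl2 was at 1.69 to 11.4 CPM in controls and 12.4 to 29.1 in mutants (edgeR adjusted p = 0.529). Among all tested genes 5.06% showed no overlap.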

How the data were processed

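RNA sequencing counts from 11 libraries of sorted J-RGC pools were used, 5 control and 6 Tbr1 KO. Per the labels' protocols, the kits were Smart-seq2 and Nextera XT, on pools of 100 cells. The authors deposited raw read counts for each gene symbol, not normalised. The submitters' processing notes name HTSeq 0.6.1, TopHat2 2.0.10 and Trimmomatic 0.32, with the build mm10 (GRCm38). For the annotation and the use of strand, nothing is given in the sources used here.

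Lines that name no gene (36.1% to 39.9% of listed reads) were left out. Counts were summed per animal. With edgeR 4.0.16 (R 4.3.3), genes were filtered by filterByExpr, libraries were scaled by TMM, and genotypes were compared by the quasi-likelihood F test in its robust form. P-values were adjusted by Benjamini-Hochberg over 13957 genes, with a threshold of 0.05. Of the 8 genes, 6 passed the filter. Standard errors are the log2 fold change divided by the square root of F. Log2 CPM used a prior count of 0.5. Permutation tests over animals cannot go below p = 0.0286. The fit was tested on simulated data. DESeq2 1.42.0 was an alternative.

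The members and lists were chosen with earlier results of these data known. Named beside the 8 genes are list members past the threshold, otherwise the 2 most abundant of each list, and the 3 genes most like each chosen gene. Positions and exon lengths are from GENCODE M21.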

Additional observations from a re-analysis of the deposited data

Results flagged for a closer look

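Among 13 groups of 4 animals with at least 10 counts for a gene, 2 held an animal whose gap to the nearest other was above Dixon's 95% critical value for the group's range. Chance gives about 1 in 20 for normally distributed, independent values. Emp2, with 1, 6, 38 and 0 counts in mutants a to d, is not such a case. Both flags fell on mutant c, so the share is a description only. Tmeff1 was at 49.1 CPM in mutant c against 82.2 to 87.9 CPM in the other mutants. Without mutant c, its log2 fold change was 0.19 with an adjusted p of 0.988 in the edgeR quasi-likelihood test. Emp2 was at 1.13 CPM in mutant c against 0 to 0.108 CPM in the other mutants.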

How the results depend on the processing

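The log2 fold change stayed between -1.92 and -1.67 for Tmeff2, between -1.67 and -1.38 for Tmem151b and between -2.65 and -2.31 for Pmp22 over the 15 alternatives. With the photoreceptor covariate these were -1.69, -1.39 and -2.35. No alternative called Tmeff1 or Tmem151a, whose values ran from -0.05 to 0.19 and from -0.14 to 0.13. Tmeff1 turned to -0.02 without control b, -0.04 without mutant a, -0.05 without mutant b and -0.01 without mutant d. Tmem151a turned to -0.11 without control a, -0.14 without mutant d, -0.07 with the photoreceptor covariate and -0.07 with the replicate block. Emp3 ran from -0.71 to 2.43, and with no filter Emp1 was at -1.68 and Emp2 at 3.64, none of them called. Over all genes, DESeq2 called 156, each library as a replicate 84, and leaving out 1 animal 17 to 44, against 40. Of the 8 counts with 1 animal left out 7 were below 40, and the 4 lowest were 18 without control b, 22 without mutant a, 17 without mutant b and 25 without mutant d. The cause was not tested. DESeq2 called 1 related gene, Sparcl1 (log2 fold change -0.77, adjusted p = 0.0478). The replicate block, fitted over libraries, gave 43 calls; same-numbered libraries correlated at -0.03 to 0.12 and share only a number. The depth limits Emp1, Emp2 and Emp3, where 3 counts are 0.0865 to 0.349 CPM.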
